A study of Mus musculus with 19 samples.

Results

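The genes described here are the 7 core members of the cAMP odorant pathway of the main olfactory epithelium, Gnal, Gng13, Adcy3, Cnga2, Cnga4, Cngb1 and Slc24a4, followed through whole vomeronasal organs (VNOs). They were chosen by name, as a canonical pathway, and are 7 of the 35596 genes in the files. VNOs were taken from female mice at postnatal day 21, from 2 lines with Cre-dependent deletion of Smad4, which relays canonical BMP and TGFβ signals to the nucleus. Each line had 3 libraries of conditional knockouts (cKO: AP-2εCre+/-/Smad4flox/flox or OMPCre+/-/Smad4flox/flox), 3 of heterozygous Cre controls (AP-2εCre+/- or OMPCre+/-) and 3 of Smad4flox/flox controls, called flox controls here. The labels name the last group wild type, while the design text gives Smad4flox/flox. The cKO mice share a Cre allele with the heterozygotes and the floxed alleles with the flox controls, so heterozygotes and flox controls differ by both. The study used the AP-2εCre allele to act in vomeronasal sensory neurons (VSNs) of the basal kind while they are immature. It used the OMPCre allele to act in mature VSNs, both apical and basal. Whether either allele acted in other cells of the dissections, main olfactory neurons among them, was not measured here. The labels name VSNs as the cell type, but RNA of the whole organ was sequenced. A further AP-2εCre library, titled as a heterozygote but with the genotype of a cKO in its labels, was left out of the comparisons and used only in 1 alternative, where it was added to the heterozygotes.

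In main olfactory neurons an odorant receptor activates the G protein Golf, whose α subunit is encoded by Gnal and a γ subunit by Gng13. Golf stimulates the adenylyl cyclase encoded by Adcy3, and cAMP opens a channel built from the subunits Cnga2, Cnga4 and a short form of Cngb1. Calcium that enters through the channel opens the chloride channel Ano2, and the exchanger encoded by Slc24a4 helps to remove it and end the response. Most VSNs signal through phospholipase C and the channel Trpc2 instead, with the G protein subunits Gnai2, Gnao1 and Gng8. VNO dissections can include neighboring tissue.

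Of the members, 6 have 8 promoter windows between them in the RefSeq table used here, each running from 250 bases before to 50 bases after a start site. The windows of 4 members are shown because Cnga2 and Slc24a4 on one side, and Cnga4 and Cngb1 on the other, varied with different genes across the libraries. They are from GRCm38.p6, 5′ to 3′ on the strand of the gene: Cnga2 at chrX:71991599-71991898 (+), Slc24a4 at chr12:102128477-102128776 (+), Cnga4 at chr7:105404318-105404617 (+) and Cngb1 at chr8:95306536-95306835 (-), the start of its long transcript. Capitals mark the letters CCCNNGGG on either strand, the core of the Olf-1 or EBF site known from genes of olfactory neurons.
Cnga2: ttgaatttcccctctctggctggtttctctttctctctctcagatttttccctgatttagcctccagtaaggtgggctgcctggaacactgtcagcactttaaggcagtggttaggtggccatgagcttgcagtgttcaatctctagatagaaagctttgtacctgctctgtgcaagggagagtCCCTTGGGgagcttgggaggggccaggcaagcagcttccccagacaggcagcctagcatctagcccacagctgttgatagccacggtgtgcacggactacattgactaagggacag
Slc24a4: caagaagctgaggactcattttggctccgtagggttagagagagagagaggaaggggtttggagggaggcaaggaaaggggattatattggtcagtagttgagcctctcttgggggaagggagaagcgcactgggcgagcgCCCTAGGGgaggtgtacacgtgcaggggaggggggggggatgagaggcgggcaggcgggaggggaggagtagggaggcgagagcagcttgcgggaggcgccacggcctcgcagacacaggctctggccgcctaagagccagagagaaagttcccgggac
Cnga4: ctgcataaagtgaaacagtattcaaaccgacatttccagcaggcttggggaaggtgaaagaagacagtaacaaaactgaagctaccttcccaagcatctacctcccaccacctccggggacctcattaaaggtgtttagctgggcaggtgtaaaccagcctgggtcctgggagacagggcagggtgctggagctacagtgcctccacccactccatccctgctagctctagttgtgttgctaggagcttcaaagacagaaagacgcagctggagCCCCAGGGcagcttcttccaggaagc
Cngb1: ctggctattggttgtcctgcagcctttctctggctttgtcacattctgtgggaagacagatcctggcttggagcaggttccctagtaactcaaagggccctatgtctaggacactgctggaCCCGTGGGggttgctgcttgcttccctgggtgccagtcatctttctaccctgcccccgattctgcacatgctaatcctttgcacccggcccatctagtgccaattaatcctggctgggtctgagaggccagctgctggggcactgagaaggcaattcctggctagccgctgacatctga

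The core began 66 bases before the start site of Cnga2 (position -66), at -109 in Slc24a4, at -129 in Cngb1 and at 24 in Cnga4. It lay in 5 of the 8 windows, in 5 genes, against 13.7% of all 32851 windows of the table. The longer letters CCCNNGGGA, which contain the core, lay in 2 of the 8 windows, those of Cnga2 and of the upstream start site of Gng13, against 6.56% of all windows. The homeodomain letters TAATTA lay in 0 of the 8 windows, against 5.29%. Both members of each contrasting pair thus held the core, and these matches are letters only, with no binding measured.

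Library totals ranged from 43385516 to 134042284 estimated counts, and the members had 187 to 12971 counts per library, so no member was near the floor of 3 counts. Smad4 itself stood at 54.2 to 62.5 CPM (counts per 1000000 counts of the library, normalized by edgeR's TMM method) in OMPCre cKO and at 65.1 to 83.9 CPM in the OMPCre controls, whereas in the AP-2εCre line cKO (33.8 to 66.8 CPM) overlapped controls (39.8 to 80.6 CPM). The VNO gene Trpc2 was present in every library, at 49.9 to 139 CPM. Among the OMPCre libraries flox replicate 3 stood apart, with 94.1 CPM summed over 4 skeletal muscle genes against 1.29 to 6.46 CPM in the 17 others. In the AP-2εCre line, heterozygote replicate 1 had the lowest Trpc2 (49.9 CPM) and the highest sum of 5 olfactory sustentacular cell genes (2390 CPM against 348 to 1236 CPM in the others).

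All 7 members were expressed in the VNO of control mice. Per length, in TPM (transcripts per 1000000 transcripts) over the 12 control libraries, Gng13 was highest at 136 ± 32.2 TPM (SD, n = 12). Adcy3 followed at 14.7 ± 5.36 TPM and Gnal at 12.6 ± 5.45 TPM. The channel subunits came next, with Cngb1 at 10.2 ± 2.92 TPM, Cnga4 at 8.37 ± 1.84 TPM and Cnga2 at 7.19 ± 3.49 TPM. Slc24a4 was lowest at 2.03 ± 0.692 TPM. The Gng13 level rests on a short transcript of 347 bases, whose effective length in the files is only about 98.9 bases, which multiplies its TPM; in CPM it had the second lowest level of the members.

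Neighbors in this order were compared within libraries by a two-sided exact sign-flip permutation test on log2(TPM + 0.1), adjusted over the 6 pairs; 12 libraries allow no p under 0.00049. Gng13 exceeded Adcy3 in 12 of 12 libraries, by 3.24 ± 0.57 on the log2 scale (adjusted exact p = 0.0015). Cnga2 exceeded Slc24a4 in 12 of 12, by 1.68 ± 0.50 (adjusted exact p = 0.0015). Cngb1 exceeded Cnga4 in 11 of 12, by the small but even margin of 0.25 ± 0.16 (adjusted exact p = 0.002). Adcy3 exceeded Gnal in 9 of 12, by 0.27 ± 0.38 (adjusted exact p = 0.027), and the adjusted p became 0.054 without AP-2εCre flox replicate 2 or 3 or OMPCre flox replicate 2. Gnal and Cngb1 did not differ beyond their spread (0.23 ± 0.61, adjusted exact p = 0.22), nor did Cnga4 and Cnga2 (0.35 ± 0.76, adjusted exact p = 0.17). Both of these turned on 1 library each: Gnal exceeded Cngb1 by 0.38 (adjusted exact p = 0.012) without OMPCre flox replicate 3, and Cnga4 exceeded Cnga2 by 0.48 (adjusted exact p = 0.043) without AP-2εCre heterozygote replicate 1.

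**Figure D1:**
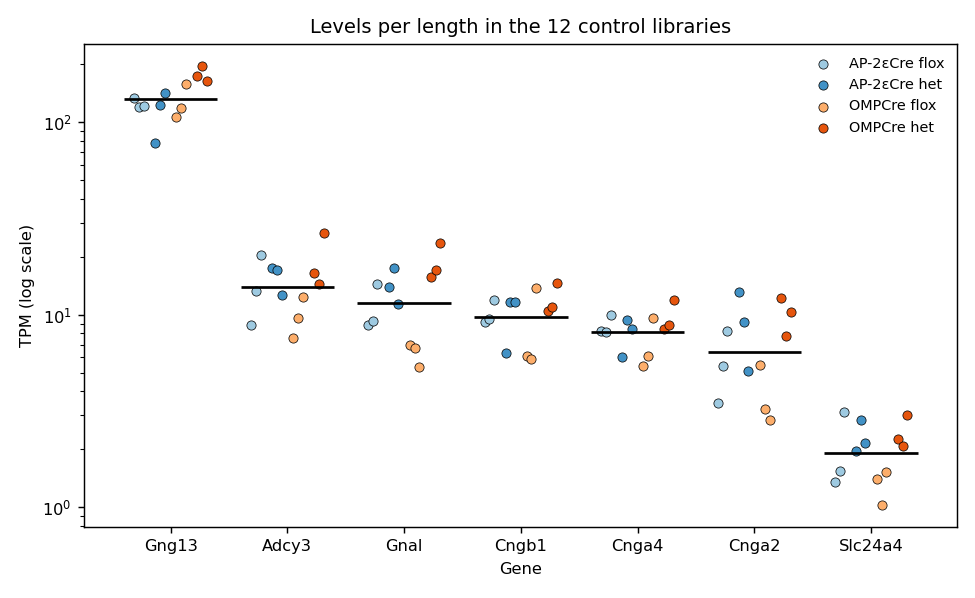
Levels of the 7 members in the 12 control libraries, in TPM on a log axis; each point is a library, colored by group, and each line the geometric mean. Gng13 lies above all others and the next 5 genes overlap each other, while Slc24a4, lowest in its mean, reaches 3.13 TPM and so overlaps Cnga2, which goes down to 2.83 TPM, and the OMPCre flox libraries sit low for Gnal and Cnga2.

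Gnal (ENSMUSG00000024524.17) lies on chromosome 18 from 67088216 to 67226792 on the + strand of GRCm38, Gng13 (ENSMUSG00000025739.13) on chromosome 17 from 25717171 to 25719406 (+), and Adcy3 (ENSMUSG00000020654.15) on chromosome 12 from 4133103 to 4213525 (+). Cnga2 (ENSMUSG00000005864.7) lies on chromosome X from 71991849 to 72010218 (+), Cnga4 (ENSMUSG00000030897.5) on chromosome 7 from 105404568 to 105408742 (+), Cngb1 (ENSMUSG00000031789.17) on chromosome 8 from 95239045 to 95306585 on the - strand, and Slc24a4 (ENSMUSG00000041771.14) on chromosome 12 from 102128733 to 102267091 (+). Exons of Gnal, Gng13 and Adcy3 overlap exons of Mppe1, Chtf18 and Cenpo on the opposite strand. The kit marks strand, but whether counting used it is not given in the sources used here, so reads in those overlaps are uncertain.

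For 4 members a single annotated transcript held nearly all counts. Cnga2-201 had 99.3% ± 1.35 of the estimated counts of Cnga2 (SD, n = 18), Cnga4-201 99.3% ± 1.2, Gng13-201 98.6% ± 0.941 and Gnal-201 94.2% ± 1.33. Adcy3 was mostly Adcy3-201 (72.9% ± 10.1), which starts downstream of Adcy3-207 (14.8% ± 10.3) and Adcy3-202 (8.96% ± 3.9). One AP-2εCre flox library had 49.8% of its Adcy3 counts on Adcy3-207, and since that transcript has only 59 exonic bases that the other 2 lack, the split between them is weakly determined.

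The short form of Cngb1 is known from olfactory neurons and the long form, with a glutamate-rich N-terminal part, from rod photoreceptors. The long Cngb1-202 (6189 bases) took 73.5% ± 3.65 of the counts, against 14.6% ± 3.95 for Cngb1-204 (3336 bases) and 11.8% ± 4.9 for Cngb1-203 (3243 bases). In every group the mean share of the long transcript lay between 71% and 76%. This does not show that the long protein was made: Cngb1-202 has 1453 exonic bases upstream of the short transcripts but also 1936 bases downstream of them, and the files do not say which of these the reads came from. For Slc24a4 the shares were Slc24a4-202 45.3% ± 12.5, Slc24a4-204 38.1% ± 22.7 and Slc24a4-203 15.9% ± 20.2. Slc24a4-203 has 0 exonic bases of its own, and its share ran from 0% to 62% between libraries, so the files do not fix its use.

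**Figure D2:**
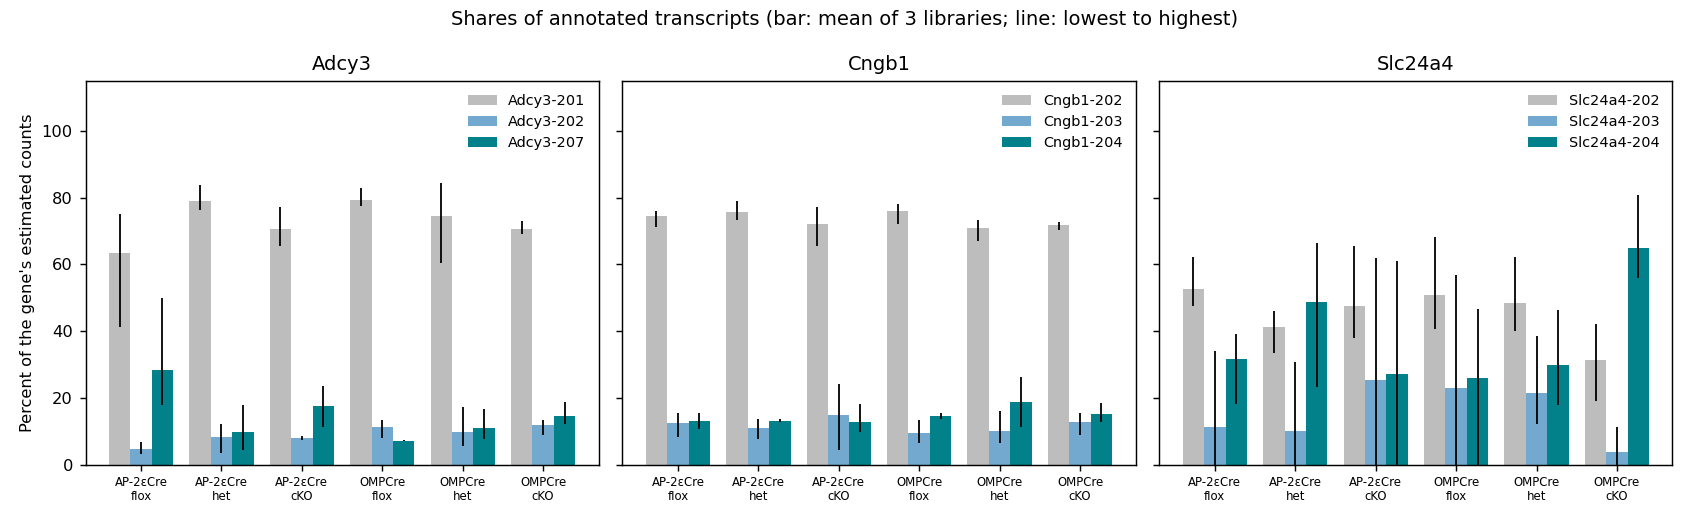
Percent of each gene's estimated counts on its annotated transcripts for Adcy3, Cngb1 and Slc24a4, by group; bars are means of 3 libraries starting at 0 and lines run from the lowest to the highest library. Cngb1-202 leads in all 6 groups, while several lines for Slc24a4 start at 0 and are longer than those of Cngb1.

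The largest differences of the members between groups involved the OMPCre heterozygotes, and were those of Gnal, the Golf α subunit, and Cnga2, the principal cAMP-binding subunit of the channel. Gnal stood at 89.3, 90.7 and 104 CPM in the 3 OMPCre heterozygotes, at 51.5, 40.4 and 24.9 CPM in the flox controls of that line, and at 33.7, 34.6 and 48.1 CPM in its cKO libraries. Cnga2 stood at 25.6, 26.3 and 26.8 CPM in heterozygotes, at 14.6, 11.7 and 7.2 CPM in flox controls and at 11.7, 10.3 and 13.9 CPM in cKO libraries. For both genes every heterozygote lay above every flox control and every cKO library, and the last 2 groups overlapped. The fitted difference between heterozygotes and flox controls was 1.27 ± 0.25 on the log2 scale for Gnal (SE, 2.41-fold) and 1.22 ± 0.23 for Cnga2 (2.34-fold).

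Neither gene passed the threshold of edgeR's quasi-likelihood test, an adjusted p under 0.05 over all genes (adjusted p = 0.318 for Gnal and 0.258 for Cnga2; exact permutation p = 0.1 for each, the smallest that 3 against 3 libraries allow). DESeq2, run as an alternative, called both (adjusted p = 7.25e-05 and 0.000175). In that comparison edgeR called 14 of 18623 genes (0.0752%) and 0 of the 7 members, and DESeq2 called 155 genes and 2 members. Leaving out single libraries kept the difference between 1.04 and 1.53 for Gnal and between 1.00 and 1.47 for Cnga2, on the log2 scale. The library names fall into a letter-and-number series, which holds replicates 1 and 2 of both groups, and another series, which holds replicate 3 of each. What these series stand for is not known here. Within each series heterozygotes were higher for both genes. Fewer cells that express a gene and less RNA per cell cannot be told apart in whole-organ libraries.

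The other 5 members had the same sign with smaller differences. Adcy3 stood at 61.8, 67.1 and 90.8 CPM in OMPCre heterozygotes against 51.3, 48.4 and 50 CPM in flox controls, a log2 difference of 0.54 ± 0.16 (edgeR adjusted p = 0.648). Slc24a4, the exchanger that ends the response, stood at 6.98, 6.24 and 7.84 CPM against 5.25, 3.93 and 3.48 CPM, a log2 difference of 0.72 ± 0.24 (edgeR adjusted p = 0.726). Cnga4, a modulatory channel subunit, stood at 24.7, 25.2 and 24.5 CPM against 19.6, 17.5 and 20.7 CPM, a log2 difference of 0.36 ± 0.13 (edgeR adjusted p = 0.776). In these 3 genes too the groups did not overlap in CPM. In TPM Cnga4 overlapped, at 8.4 to 11.9 TPM in heterozygotes and 5.42 to 9.57 TPM in flox controls. Cngb1 (62.6, 63.4 and 64.8 CPM against 46, 36.9 and 63.4 CPM) and Gng13 (22.9, 24.8 and 14.8 CPM against 17.1, 15 and 15 CPM) overlapped between the groups. In TPM Gng13 did not overlap, at 163 to 196 TPM against 107 to 158 TPM. In all, 5 of the 7 members lay higher in CPM in every heterozygote than in every flox control, against 6.45% of all genes tested, and the same 5 had an unadjusted p under 0.05, against 5.84%. The median log2 difference was 0.54 over the members and -0.01 over all genes tested.

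**Figure D3:**
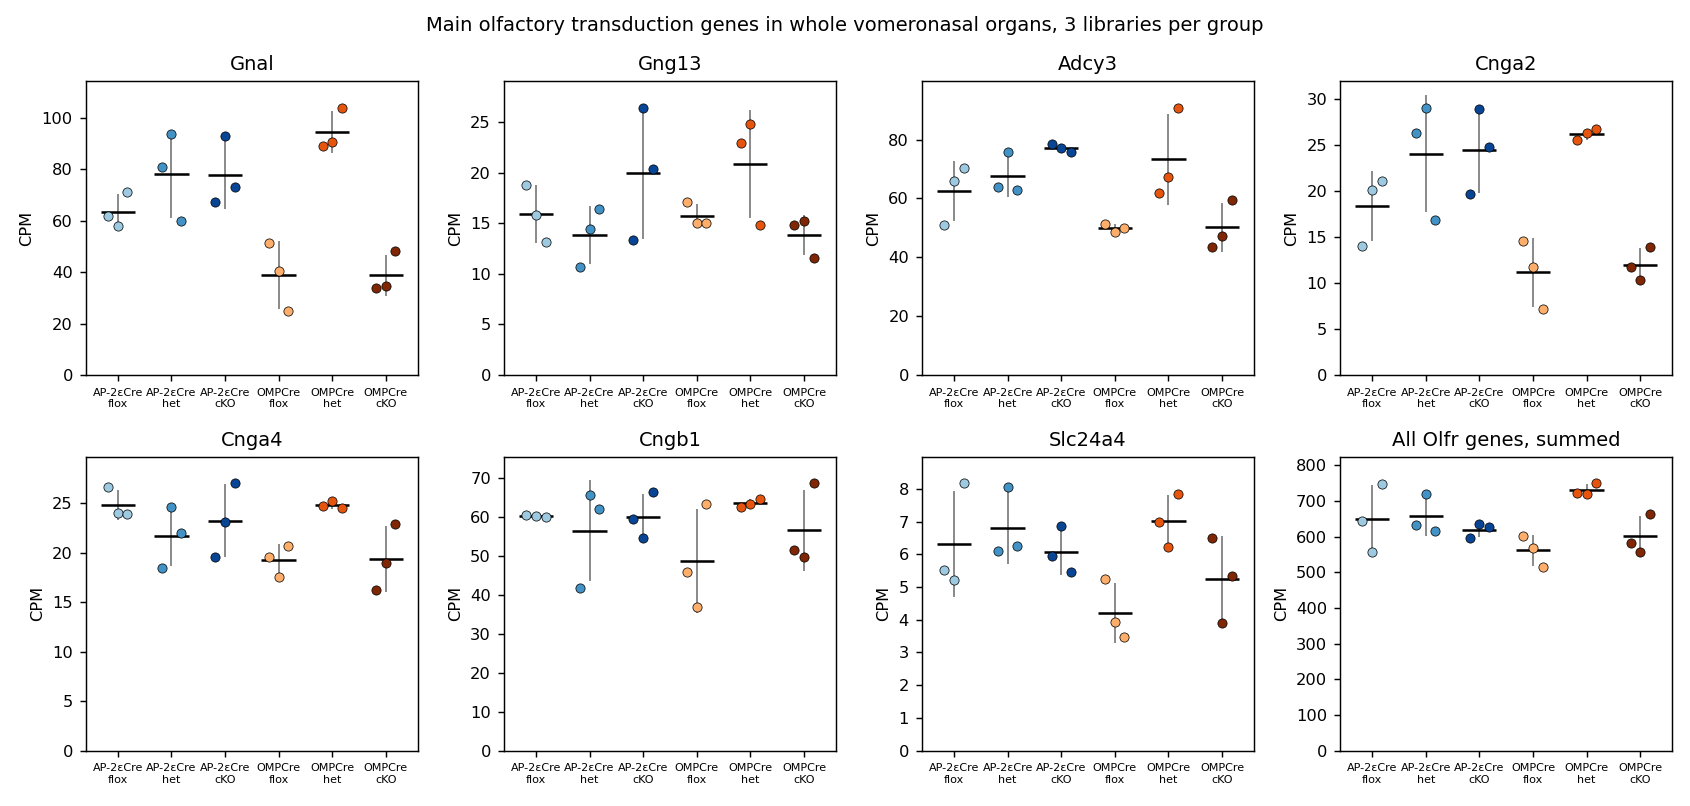
CPM of the 7 members and of all Olfr genes summed, in the 6 groups; points are libraries, horizontal lines means of 3 libraries and vertical lines ± 1 SD, with axes from 0. The OMPCre heterozygotes stand above both other OMPCre groups for Gnal, Cnga2 and the Olfr sum, while in the AP-2εCre line cKO libraries overlap the controls for every member.

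The OMPCre cKO libraries were near the flox controls and below the heterozygotes for these genes. Against the flox controls alone, the cKO difference was -0.01 ± 0.27 on the log2 scale for Gnal, 0.10 ± 0.27 for Cnga2 and 0.00 ± 0.13 for Adcy3 (edgeR adjusted p = 0.999 for each). Against the heterozygotes alone it was -1.28 ± 0.15 for Gnal (edgeR adjusted p = 0.06) and -1.13 ± 0.13 for Cnga2 (edgeR adjusted p = 0.0504). Here 0 of the 7 members were called, against 0.0608% of all genes tested. These were the only 2 groups of a line in which all 3 pairs of libraries with the same replicate number had deviations from their group means that correlated over 0.1. With the replicate number as a block, added after seeing the data, both genes passed the threshold, Gnal at -1.30 (edgeR adjusted p = 0.0175) and Cnga2 at -1.14 (edgeR adjusted p = 0.0474), so 2 of the 7 members were called, against 0.105% of all genes. The calls of these 2 members thus rested on whether the block was used, while their log2 differences hardly moved. In CPM Gnal, Cnga2, Adcy3 and Cnga4 lay lower in every cKO library than in every heterozygote, 4 of the 7 members against 5.43% of all genes, and 5 of the 7 had an unadjusted p under 0.05 against 4.96%. In TPM Adcy3 (up to 15.1 in cKO, down to 14.4 in heterozygotes) and Cnga4 (up to 10.2, down to 8.4) overlapped. Gng13 did not overlap in TPM, at 109 to 118 in cKO and 163 to 196 in heterozygotes. The summed levels of cartilage and glia markers also did not overlap between these groups. The 4 cartilage genes had 29.8 to 44.9 CPM summed in cKO and 50.6 to 60.8 CPM in heterozygotes, with 4 of 4 lower, 0 called and a median log2 difference of -0.74 (Col2a1, a cartilage collagen, at -1.06 ± 0.14, edgeR adjusted p = 0.0884). The 5 glia genes had 90 to 112 CPM and 120 to 126 CPM summed, with 2 of 5 lower, 0 called and a median of 0.00. Their part in the member values was not tested. In flox controls the cartilage sum ran from 22.9 to 116 CPM and the glia sum from 102 to 134 CPM, overlapping heterozygotes. These 2 comparisons and the one between heterozygotes and flox controls share libraries, so their values are not independent.

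With both kinds of control together, as the study compared them, 0 of the 7 members were called in the OMPCre cKO, where 0% of 18623 genes passed in edgeR, 735 had an unadjusted p under 0.05 (3.95%) and DESeq2 called 43 genes and 0 members. Gnal had 38.8 ± 8.09 CPM in cKO and 66.9 ± 32.1 CPM in the 6 controls, a log2 difference of -0.78 ± 0.42 with an edgeR adjusted p of 1. Cnga2 had 12 ± 1.84 CPM against 18.7 ± 8.61 CPM, a log2 difference of -0.64 ± 0.39. The other 5 members lay between -0.39 (Gng13) and 0.02 (Cngb1). All 7 members overlapped between cKO and controls, and groups that do not overlap, in either direction, made up 2.31% of all genes. Within the 6 controls, heterozygotes and flox controls did not overlap in CPM for Gnal, Cnga2, Adcy3, Cnga4 and Slc24a4, as given above.

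Some genes known from main olfactory neurons had the same order of groups, and others did not. Stoml3, a protein of olfactory cilia, stood at 62.1, 62.8 and 58 CPM in OMPCre heterozygotes, at 43.8, 35 and 17.9 CPM in flox controls and at 28.2, 28.4 and 32 CPM in cKO. S100a5, a calcium-binding protein of mature olfactory neurons, stood at 21.8, 20.6 and 28.3 CPM, at 14.6, 10.4 and 4.97 CPM and at 8.3, 7.95 and 7.34 CPM in the same groups. Both passed edgeR's threshold between cKO and heterozygotes alone, with log2 differences of -1.04 ± 0.09 (adjusted p = 0.02) and -1.58 ± 0.15 (adjusted p = 0.0293). They were singled out among the listed genes after their values were seen. Stoml3 was the 1 called of 16 further main olfactory transduction genes, of which 7 were higher and 9 lower in cKO than in heterozygotes (median -0.03 on the log2 scale, 0.01 over all genes). S100a5 was the 1 called of 5 other genes of mature olfactory neurons, of which 2 were higher and 3 lower (median -0.09). Nqo1, an oxidoreductase of the same list, ran the other way without overlap, at 45.2 to 62.4 CPM in heterozygotes against 72.9 to 73.1 CPM in flox controls and 70.8 to 80.8 CPM in cKO, with a log2 difference of -0.38 ± 0.12 between heterozygotes and flox controls (edgeR adjusted p = 0.718) and 0.42 ± 0.14 between cKO and heterozygotes (edgeR adjusted p = 0.862). Between heterozygotes and flox controls that list had 4 higher, 1 lower and 0 called, with a median of 0.17. Summed over 1406 odorant receptor (Olfr) genes, OMPCre heterozygotes had 719 to 749 CPM, flox controls 516 to 601 CPM and cKO 558 to 664 CPM. Of 425 Olfr genes tested between heterozygotes and flox controls, 300 were higher and 125 lower, with a median log2 difference of 0.37, and 2 were called, Olfr536 (2.85 ± 0.35, edgeR adjusted p = 0.036) and Olfr741 (2.17 ± 0.28, edgeR adjusted p = 0.047).

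A marker of another cell of that epithelium, the sustentacular enzyme Cyp2g1, stood at 101, 83.6 and 95.4 CPM in OMPCre heterozygotes, at 64.5, 46.1 and 26.1 CPM in flox controls and at 47.7, 64.4 and 45 CPM in cKO. Summed, the 5 sustentacular genes had 785 to 921 CPM, 348 to 1158 CPM and 513 to 1019 CPM in these groups, which overlapped, but gene by gene the list differed between groups about as much as the members. Between heterozygotes and flox controls 4 of 5 were higher, 1 of them (Cyp2g1) without overlap, with a median log2 difference of 0.70 beside 0.54 for the members. Between cKO and heterozygotes alone Cyp2g1, Cyp1a2, Ermn and Ugt2a1 were lower in every cKO library, each with an unadjusted p under 0.05, and the median was -0.66 beside -0.54 for the members. None of the 5 was called in either comparison, and their part in the member values was not tested. With the summed level of Cyp2g1 and Ugt2a1 as a covariate, a choice made after seeing the data, the differences between heterozygotes and flox controls were 1.03 for Gnal and 0.95 for Cnga2 on the log2 scale. Divided by Cyp2g1 in the same library, the CPM of Gnal gave ratios of 0.887, 1.08 and 1.09 in heterozygotes, 0.798, 0.877 and 0.954 in flox controls and 0.707, 0.537 and 1.07 in cKO. For Cnga2 the ratios were 0.254, 0.315 and 0.281 in heterozygotes, 0.226, 0.253 and 0.276 in flox controls and 0.246, 0.159 and 0.309 in cKO. In these CPM ratios all 3 groups overlapped for both genes. In TPM the ratio of Gnal to Cyp2g1 was 0.326, 0.429 and 0.377 in heterozygotes and 0.288, 0.309 and 0.325 in flox controls, which did not overlap, while the ratio of Cnga2 to Cyp2g1 did (0.254, 0.196 and 0.163 against 0.227, 0.148 and 0.172). The share of olfactory tissue in the dissections was not measured. Muscle genes were highest in flox replicate 3, which also had the lowest Gnal and Cnga2. Without it the differences were 1.04 (edgeR adjusted p = 0.152) and 1.00 (edgeR adjusted p = 0.102).

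Among the 16 further genes of main olfactory transduction in the list used here (G protein β subunit and chaperone, kinase, arrestin, phosphodiesterases, chloride handling, receptor transport and calmodulins), 13 were higher and 3 lower in OMPCre heterozygotes than in flox controls. None was called by edgeR and 5 had an unadjusted p under 0.05, all higher, and the median log2 difference was 0.09. The one nearest the threshold was Ric8b, the chaperone of the Golf α subunit, at 0.58 ± 0.09 (edgeR adjusted p = 0.0748), named after its values were seen. The 8 vomeronasal transduction genes had a median of 0.03, with 0 called and 0 at an unadjusted p under 0.05. Omp, whose locus carries the OMPCre allele, stood at 225 to 248 CPM in heterozygotes, at 238 to 286 CPM in OMPCre cKO and at 305 to 476 CPM in flox controls. Flox controls lack that allele, so their Omp level against the other groups cannot be read beside those of Gnal and Cnga2. Between heterozygotes and cKO, which both carry it, Omp overlapped.

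In the AP-2εCre line the heterozygotes and flox controls overlapped for all 7 members, where 9.92% of all genes did not overlap. Gnal stood at 81, 93.6 and 59.8 CPM in heterozygotes and at 61.7, 57.8 and 71.1 CPM in flox controls, a log2 difference of 0.30 ± 0.18 (edgeR adjusted p = 0.978). Cnga2 stood at 26.3, 29.1 and 16.9 CPM against 14, 20.1 and 21.1 CPM, a log2 difference of 0.39 ± 0.23 (edgeR adjusted p = 0.978). For Cnga2 it ran from 0.22 to 0.59 without single libraries and from 0.35 to 0.77 under the other alternatives. The other 5 members lay between -0.20 and 0.12. The share of all genes called was 0.0487%, and 0 members were among them.

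The difference between the lines in this contrast was tested directly as an interaction over the 18 libraries, a test added after seeing the data. No alternatives were run for it. The heterozygote effect was larger in the OMPCre line by 0.98 ± 0.32 on the log2 scale for Gnal, 0.84 ± 0.35 for Cnga2 and 0.56 ± 0.20 for Cnga4. Unadjusted p-values were under 0.05 for these 3 members, against 5.81% of all genes tested, and edgeR's adjusted p-values were 0.729, 0.79 and 0.729. None of the 7 members was called, against 0.0257% of all genes.

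Loss of Smad4 in the AP-2εCre line left all 7 members without a call, against 0.0378% of the 18495 genes tested. Adcy3 was the member with the smallest p. It stood at 78.6, 77.2 and 75.7 CPM in cKO, at 50.9, 66 and 70.3 CPM in flox controls and at 64, 75.7 and 62.9 CPM in heterozygotes. The cKO libraries were tight and at the top of the range, with 1 heterozygote level with the lowest of them. The log2 difference was 0.25 ± 0.11 (edgeR adjusted p = 0.469, DESeq2 adjusted p = 0.405, exact permutation p = 0.06 over 84 splits, which allow 0.012). With counts rebuilt from length-scaled TPM it was -0.03, so its direction rested on how transcript lengths were handled. Adcy3 was the only one of the 7 with an unadjusted p under 0.05, a threshold that 10.2% of all genes passed.

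Gng13 stood at 13.3, 26.4 and 20.3 CPM in AP-2εCre cKO against 10.7 to 18.8 CPM in the 6 controls, a log2 difference of 0.43 ± 0.21 (edgeR adjusted p = 0.539). It kept its sign without any single library, from 0.17 to 0.65, the lowest without AP-2εCre cKO replicate 2. The channel subunits differed little: 0.20 ± 0.22 for Cnga2, 0.00 ± 0.13 for Cnga4 and 0.04 ± 0.13 for Cngb1, with 24.5 ± 4.63, 23.2 ± 3.71 and 60.2 ± 5.89 CPM in cKO. Gnal lay at 0.14 ± 0.17 and Slc24a4 at -0.11 ± 0.18. All 7 members overlapped between cKO and controls, where 5.12% of all genes did not. The summed Olfr level was 597 to 635 CPM in cKO and 558 to 747 CPM in controls, and of 441 Olfr genes tested 220 were higher and 221 lower. Markers of ciliated respiratory epithelium were lower in AP-2εCre cKO, with 334 to 484 CPM summed over 5 genes against 512 to 678 CPM in controls, 5 of 5 lower and 0 called; their part in the member values was not tested.

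**Figure D4:**
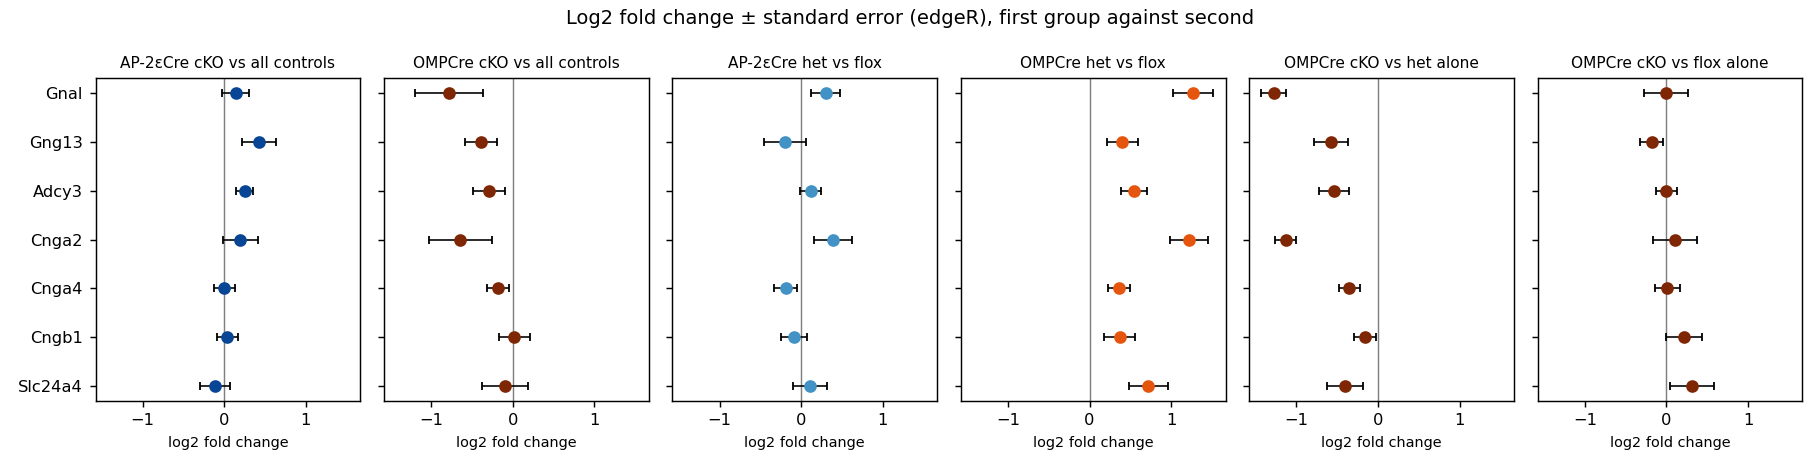
Log2 fold change of each member with its standard error from edgeR in 6 comparisons, first group against second. In the OMPCre heterozygotes all 7 points lie right of 0, with Gnal at 1.27 and Cnga2 at 1.22, against the heterozygotes alone the OMPCre cKO points mirror them, and against the flox controls alone Gnal and Adcy3 lie at 0.

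The cKO effects of the 2 lines did not differ for any member past the threshold, where edgeR called 0% of 19465 genes, 956 had an unadjusted p under 0.05 (4.91%) and DESeq2 called 19 genes and 0 members. The OMPCre effect minus the AP-2εCre effect was -0.82 ± 0.31 for Gng13, -0.54 ± 0.24 for Adcy3 (unadjusted p = 0.0164 and 0.0396 in edgeR), -0.91 ± 0.47 for Gnal and -0.84 ± 0.47 for Cnga2, each with an edgeR adjusted p of 1. For Cnga4, Cngb1 and Slc24a4 it was -0.17 ± 0.20, -0.02 ± 0.24 and 0.02 ± 0.34.

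The controls of the 2 lines, which share no animals, differed by less than their spread for the members. Gnal had 66.9 ± 32.1 CPM in the 6 OMPCre controls and 70.8 ± 14.1 CPM in the 6 AP-2εCre controls, and Cnga2 18.7 ± 8.61 CPM and 21.3 ± 5.66 CPM. The differences over the 7 members ran from -0.22 ± 0.20 (Slc24a4) to 0.30 ± 0.16 (Gng13) on the log2 scale, with edgeR's adjusted p-values of 0.791 or more. None was called, against 0.0949% of 17912 genes, and all 7 overlapped, against 0.491% that did not.

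Across the 18 libraries the 7 members did not vary as one block. Levels were compared as log2(CPM + 0.1), and the correlations below are descriptions over libraries that share groups, tissue composition and depth. Gnal and Cnga2 were closest to each other of all pairs (Pearson r = 0.97, Spearman rho = 0.96), with r = 0.88 over the 9 AP-2εCre libraries, 0.99 over the 9 OMPCre libraries and 0.88 after the group means were subtracted. Slc24a4 (r = 0.80 with each) and Adcy3 (r = 0.83 with each) were next. Cnga4 and Cngb1 went together (r = 0.75, and 0.73 within groups), although Cnga4 and Cnga2, which assemble in the same olfactory channel, reached only 0.54 over all libraries and 0.04 within groups. Cngb1 and Cnga2 had r = 0.26, and -0.30 within groups. Gng13 was apart from Gnal, its partner in Golf (r = 0.32), and nearest among the transduction genes to the vomeronasal γ subunit Gng8 (r = 0.75, and 0.88 within groups).

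The genes most like each member were taken from 15838 genes with a mean of at least 1 CPM. For Cnga2 these were Gnal (r = 0.969), Stoml3 (0.956), Aox2 (0.929), S100a5 (0.911) and Olfr140 (0.899), and for Gnal they were Cnga2, Stoml3 (0.964), Aox2 (0.960), Olfr140 (0.920) and S100a5 (0.913). Slc24a4 was most like D430042O09Rik (0.898), Olfr140 (0.847), Olfr653 (0.841), Ccp110 (0.817) and Aox2 (0.814). Adcy3 was most like Jak3 (0.885), Abcd2 (0.885), Rad54l2 (0.867), Ebf4 (0.842) and Negr1 (0.841). Stoml3, S100a5 and the Olfr genes are known from olfactory neurons.

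The channel subunits Cngb1 and Cnga4 were most like other genes. Cngb1 was most like Map3k12 (0.945), the chloride channel Ano2 (0.930), Pcdhb1 (0.912), Cadps (0.906) and Madd (0.895), and its correlation with Trpc2, the channel of VSNs, was 0.69 over all libraries and 0.84 within groups. Cnga4 was most like Dtx3 (0.796), Dscam (0.783), Ano2 (0.783), Plxna3 (0.762) and Sec61a2 (0.760), with r = 0.40 to Trpc2. For Cnga2 and Gnal the correlation with Trpc2 was -0.14 and -0.05, and that with Cyp2g1 0.87 and 0.84, against 0.03 for Cngb1 and 0.39 for Cnga4 with Cyp2g1. Gng13 was most like Arntl (0.852) and Npas2 (0.831), both transcription factors of the circadian clock, followed by Adamts4 (0.829), Carm1 (0.823) and Midn (0.814).

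**Figure D5:**
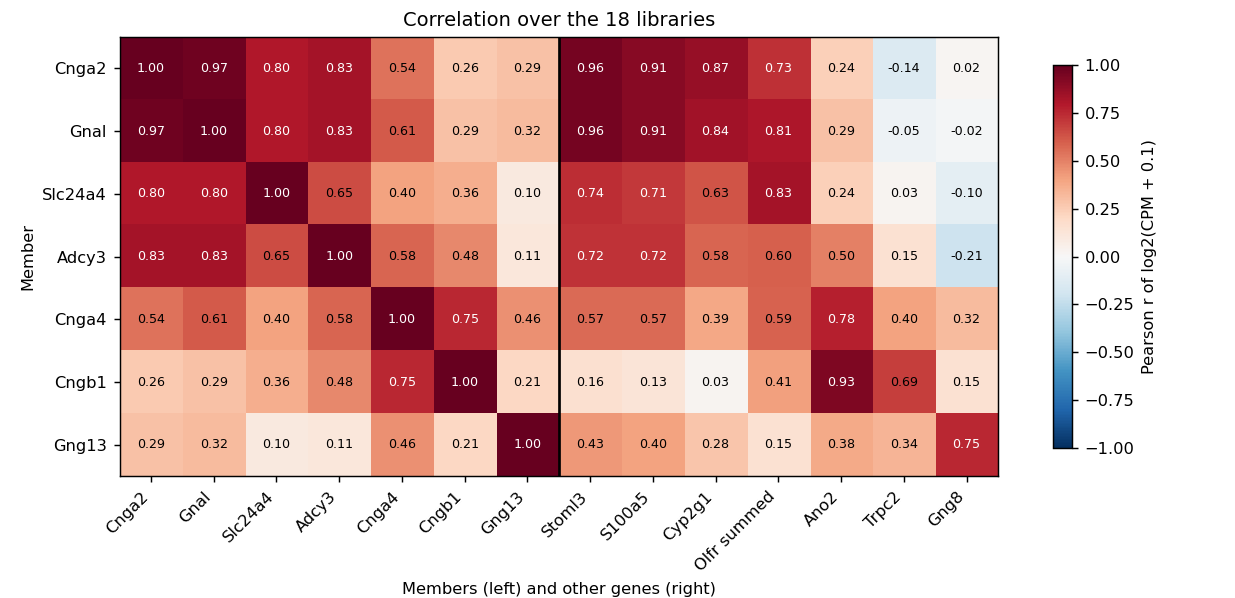
Pearson r of log2(CPM + 0.1) over the 18 libraries between the members (rows, and left columns) and 7 other genes or sums (right columns); red is positive and blue negative. Cnga2 and Gnal share high values with Stoml3, S100a5 and Cyp2g1, Cngb1 and Cnga4 with Ano2, and Gng13 with Gng8.

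Single libraries differed in how these genes stood to each other. AP-2εCre heterozygote replicate 1, lowest for Trpc2 and highest for sustentacular genes, had 26.3 CPM of Cnga2 and 81 CPM of Gnal, above the range of the flox controls of its line (14 to 21.1 and 57.8 to 71.1 CPM). The same library had 41.8 CPM of Cngb1, where the 8 other AP-2εCre libraries had 54.7 to 66.4 CPM, and 18.5 CPM of Cnga4, the lowest of its line. Heterozygote replicate 2 of that line did not share this pattern, with still higher Cnga2 and Gnal (29.1 and 93.6 CPM) beside 65.7 CPM of Cngb1, the highest of the AP-2εCre controls, 102 CPM of Trpc2 and a sustentacular sum of 1090 CPM, inside the range of the other AP-2εCre libraries. In TPM, which allows levels of different genes to be set side by side, the ratio of Cnga2 to Cnga4 was 2.17 in heterozygote replicate 1, against 0.419 to 0.995 in the other 8 AP-2εCre libraries. OMPCre flox replicate 3 went the other way, with 63.4 CPM of Cngb1 but 7.2 CPM of Cnga2 and a TPM ratio of 0.296, the lowest of all 18. In OMPCre heterozygotes the ratio was 1.46, 0.883 and 0.861, in flox controls 1.02, 0.53 and 0.296, and in cKO 0.573, 0.428 and 0.483. The same ratio in CPM, which does not use the transcript lengths fitted in each library, set AP-2εCre heterozygote replicate 1 less far apart, at 1.42 against 0.528 to 1.25 in the other 8 of its line. In CPM the OMPCre heterozygotes (1.03, 1.04 and 1.09) did not overlap flox controls (0.745, 0.668 and 0.349) or cKO (0.722, 0.539 and 0.608), while in TPM heterozygotes and flox controls overlapped. The TPM ratio of Cnga4 to Cngb1 was steadier, at 0.641 to 1.04 in all 18 libraries.

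Markers of some other cell types were also read. Of the 3 genes listed for the guanylyl cyclase D olfactory neurons, Gucy2d and Cnga3 had at most 0.355 and 0.499 CPM in the 18 libraries, and Cnga3 had 0.615 CPM in the library with conflicting labels. The third, the phosphodiesterase gene Pde2a, had 24.4 to 30.4 CPM in 4 libraries, 1 each of AP-2εCre cKO and the 3 OMPCre groups, and 1.84 to 7.44 CPM in the 14 others. The summed level of the list ran from 2.36 to 6.77 CPM in AP-2εCre flox controls, 2.93 to 7.81 CPM in heterozygotes and 3.35 to 31 CPM in cKO, and from 2.11 to 28.6, 5.82 to 25.5 and 3.95 to 24.8 CPM in the same groups of the OMPCre line, so the groups overlapped. The tuft or microvillous cell channel Trpm5, whose cells also use Gng13, had 1.24 to 4.21 CPM, and the 6 genes of that list 8.32 to 20.4 CPM summed, with group ranges of 11.6 to 17.2, 11.4 to 20.4 and 8.32 to 14.4 CPM in AP-2εCre flox controls, heterozygotes and cKO and of 14.5 to 16.1, 11.3 to 17.9 and 10.8 to 17 CPM in the OMPCre line. These groups overlapped, and the list had 0 called genes in both cKO comparisons.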

How the data were processed

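The authors isolated RNA from dissected VNOs, made directional polyA+ libraries sequenced as single reads of 75 bases, and quantified them with salmon 0.14.0 on mm10 (GRCm38). The deposited files hold for each transcript an estimated count, which need not be whole, a TPM, scaled by the authors to 1000000 per library, and an effective length, which salmon corrects for fragment size. The methods name a coding-sequence assembly, but transcript lengths in the files are those of whole transcripts.

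Estimated counts were added per gene with GENCODE vM21 and rounded. Levels are TMM-normalized CPM. Tests used edgeR 4.0.16 (R 4.3.3) with filterByExpr and Benjamini-Hochberg adjustment over all genes tested, where all 7 members passed the filter, and exact permutation tests on log2(CPM + 0.1). DESeq2 1.42.0 and the settings named at the end were alternatives. The scripts were tested on simulated data. Tables and figures used Python 3.11.15. The 7 members are named in every comparison, with the 5 genes most like each, transcripts with at least 5% of a member's counts, and listed genes only where called or needed beside a member. Members and gene lists were chosen with earlier results of these data known. Deviations from group means were correlated across genes between same-numbered libraries; only OMPCre heterozygotes and cKO had all 3 pairs over 0.1, and the block is given beside that comparison. Replicates are labelled biological, and no 2 libraries were near-copies.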

Additional observations from a re-analysis of the deposited data

Results flagged for a closer look

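Among the 6 AP-2εCre controls, 1 library lay far from the others for Cngb1: its gap to the next was 0.762 of the whole range, above the critical value for 6 samples. It was heterozygote replicate 1, at 41.8 CPM against 60 to 65.7 CPM in the other 5. About 1 in 20 such groups is expected to pass by chance, and 14 groups (7 members in 2 lines) were examined. The library with conflicting labels exceeded every AP-2εCre control for Adcy3, at 78.3 CPM against 50.9 to 75.7 CPM, and for Cngb1, at 67.8 CPM against 41.8 to 65.7 CPM. The AP-2εCre cKO libraries had 75.7 to 78.6 CPM of Adcy3 and 54.7 to 66.4 CPM of Cngb1. Its other 5 members lay inside the range of the controls.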

How the results depend on the processing

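Over 784 refits of single members under alternatives, 726 kept their sign and side of the threshold, 54 changed sign and 4 passed the threshold. The last 4 were Gnal and Cnga2, each in OMPCre heterozygotes against flox controls with DESeq2 and in OMPCre cKO against heterozygotes alone with the replicate block (-1.30 and -1.14), so each of these settings called 2 members where edgeR without them called 0; the cause was not tested. No other alternative called a member. The changes of sign with other settings were small. In AP-2εCre cKO they were Adcy3 (-0.03) and Cnga2 (-0.11) with length-scaled TPM counts, Cngb1 with flox controls alone (-0.01) and with the sustentacular covariate (-0.03), and Cnga4 (0.10) and Gnal (0.00) with heterozygotes alone. In OMPCre cKO they were Slc24a4 with length-scaled TPM counts (0.08), with the covariate (0.09) and with flox controls alone (0.31), Cngb1 with the covariate (-0.01) and with heterozygotes alone (-0.16, and -0.17 with the replicate block), and Adcy3 (0.00), Cnga2 (0.10) and Cnga4 (0.01) with flox controls alone. For the difference between cKO effects they were Cngb1 with length-scaled TPM counts (0.00) and Slc24a4 with the replicate block (-0.01).

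Leaving out 1 library at a time changed signs in these ranges: in AP-2εCre cKO, Cnga4 -0.12 to 0.10, Cngb1 -0.04 to 0.10 and Gnal -0.01 to 0.23; in OMPCre cKO, Cngb1 -0.15 to 0.10 and Slc24a4 -0.28 to 0.08; in AP-2εCre heterozygotes, Adcy3 -0.02 to 0.21, Cngb1 -0.22 to 0.08 and Slc24a4 -0.03 to 0.34. Between the lines' controls Cngb1 ran from -0.14 to 0.04 and Gnal from -0.25 to 0.09, and for the difference between cKO effects Cngb1 ran from -0.19 to 0.07 and Slc24a4 from -0.16 to 0.19. In the order of levels, differences ran from 0.19 to 0.32 for Adcy3 over Gnal, 0.15 to 0.38 for Gnal over Cngb1 and 0.22 to 0.48 for Cnga4 over Cnga2, and Cnga4 passed Cnga2 with all 18 libraries (0.44, adjusted exact p = 0.016).

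Counts of all genes called moved most with DESeq2, to 309 in AP-2εCre cKO (7 in edgeR), 43 in OMPCre cKO (0), 125 and 155 between heterozygotes and flox controls of the AP-2εCre and OMPCre lines (9 and 14), 97 between the lines' controls (17) and 19 for the difference between cKO effects (0). With length-scaled TPM counts they were 2 in AP-2εCre cKO, 4 in AP-2εCre heterozygotes and 11 between the lines, with the naming series as a covariate 2, 5 and, in OMPCre cKO, 1, with at least 1 count in total 14 in AP-2εCre heterozygotes, and with 1 kind of control alone 24 (AP-2εCre flox) and 11 (OMPCre heterozygotes). With the library of conflicting labels added to the heterozygotes, AP-2εCre cKO had 0. Leaving out 1 library moved the edgeR counts, and with them the background shares of called genes, to 2 to 8 in AP-2εCre cKO (2 or 3 without flox replicate 2 or 3, heterozygote replicate 2 or 3 or cKO replicate 1 or 3), 0 to 2 in OMPCre cKO (2 without OMPCre flox replicate 2), 3 to 21 in AP-2εCre heterozygotes (21 without heterozygote replicate 1, 3 without flox replicate 1, 4 or 5 without flox replicate 3 or any cKO library), 6 to 19 in OMPCre heterozygotes (6 without flox replicate 2, 8 without heterozygote replicate 1 or 2), 13 to 25 between the lines' controls and 0 to 1 for the difference between cKO effects (1 without OMPCre flox or cKO replicate 1).

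Replicate numbers belong to different animals. Deviations of same-numbered libraries correlated over 0.1 in 3 of 9 pairs in the AP-2εCre line and 7 of 9 in the OMPCre line, with every pair over 0.1 only between OMPCre heterozygotes and cKO (0.192 to 0.461). For those 2 groups the block called 19 genes against 11 without it. Otherwise the numbers were not taken as pairing. In the OMPCre line replicate 3 of each group also carries the other series of library names, so number and naming series cannot be fully told apart there. With the replicate block, 2 genes were called in AP-2εCre cKO, 3 in AP-2εCre heterozygotes and 7 in OMPCre heterozygotes, and 0 members in these comparisons. Depth did not limit the members, whose lowest count was 187.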
